A study of Mus musculus with 18 samples.

Results

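Keratins are the intermediate filament proteins of epithelial cells, and the deposited count table lists 53 protein-coding genes whose symbol is Krt followed by a digit, out of 54532 genes in all. Keratin-associated protein genes (Krtap) and Krtcap genes were left out by that rule. A filter on low counts left 29 of the 53 keratins among 17537 tested genes. The counts come from whole larynges of male C57BL6/J mice aged 8 to 9 weeks, sequenced as 18 mRNA libraries of 6 per group. Mice of the air group (labelled TRC) breathed room air, those of the smoke group (CSE) smoke of 3R4F research cigarettes, and those of the e-cigarette group (JVT) aerosol of JUUL Virginia tobacco e-cigarettes, all in an inExpose whole-body chamber for 1 h a day on 5 days a week for 4 weeks. The labels name no genetic change in any group. Whether a library stands for 1 animal is not in the labels, and p-values then measure only the spread between these samples, which may be technical.

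A keratin filament is built from pairs of a type I and a type II keratin, and each layer of an epithelium makes its own pairs. Basal cells of stratified epithelium make Krt5 with Krt14, the layers above them in a wet mucosa make Krt4 with Krt13, the epidermis makes Krt1 with Krt10, and single-layered epithelia make Krt8 with Krt18. The larynx is known for stratified squamous epithelium over the vocal folds and for ciliated and glandular epithelium around them, and pathologists use keratins to tell such epithelia apart. In bulk libraries, fewer cells of a type and less RNA per cell cannot be told apart.

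The 53 genes lay in a pair of clusters, in GRCm38 coordinates as deposited. All 27 members on chromosome 11 lay on the minus strand between 99232761 and 100269871, and 14 of them were tested. The 26 on chromosome 15 lay between 101347444 and 102032027, with 4 on the plus strand and 15 tested. Krt8 and Krt18, which encode partners, are neighbours at the end of the chromosome 15 cluster, 23697 bases apart.

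Libraries held 15551432 to 22469894 counts. Transcripts of organs around the larynx differed between the groups. The 12 thyroid markers summed to 57069 to 98881 CPM (counts scaled to a common library size, with TMM factors) in the air libraries and 58111 to 95602 CPM in the smoke libraries, but to 144 to 29314 CPM in the e-cigarette libraries, with 9 of the 12 called lower against air. E-cigarette libraries 1 and 3 kept the most, with 26943 and 29314 CPM. Gland markers summed to 1434 to 6202 CPM in air libraries 4, 5 and 6 and to 20517 to 59687 CPM in the other 15 libraries. Air library 3 stood apart within its group in 9 keratins.

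Counted together, keratins took 0.628 to 1.31% of the counts of the air libraries, 0.488 to 2.10% of the smoke libraries and 1.03 to 2.33% of the e-cigarette libraries, ranges that overlap. Mucosal squamous keratins were the largest class in every library, with 45.2 to 74.2% of the keratin counts in air, 57.2 to 81.6% in smoke libraries and 54.9 to 83.3% in e-cigarette. Basal keratins took 13.2 to 28.4% of them in air, simple epithelial keratins 9.19 to 20.9%, and stress keratins 2.07 to 8.81%. Hair shaft and nail keratins took 0.0900 to 0.170% in air.

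**Figure D1:**
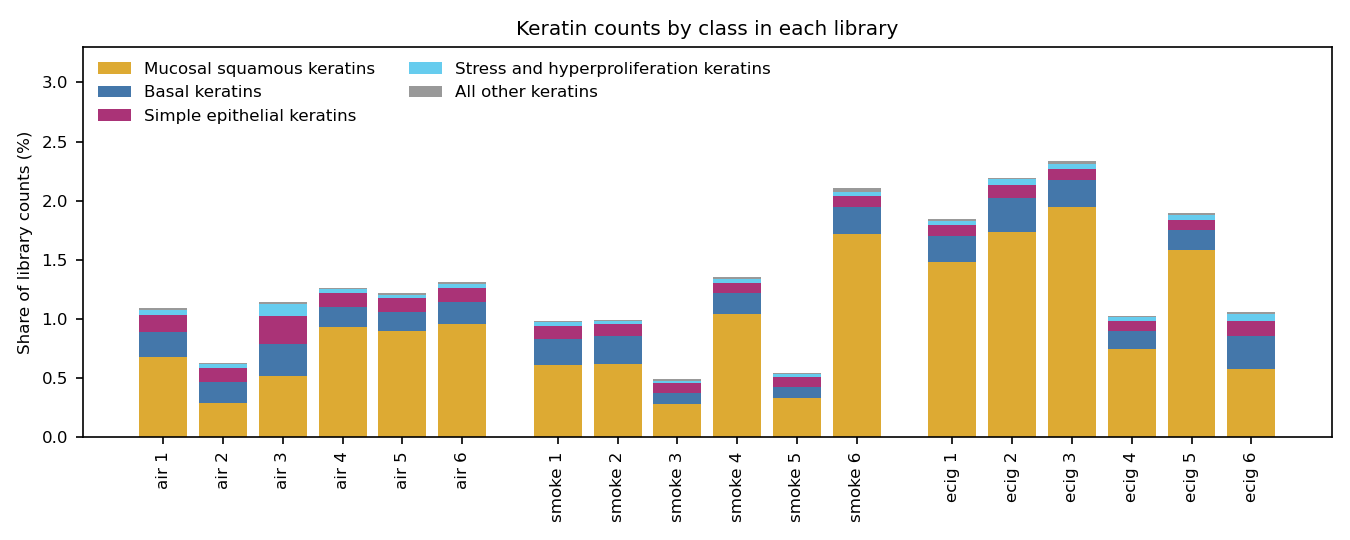
Share of all counts (%, y axis) taken by keratin genes in each of the 18 libraries (x axis), stacked by class. The gold part, the mucosal squamous keratins, is the largest in all 18 bars, and the bars reach from 0.488% to 2.33%.

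Per kilobase of gene length, Krt13 and Krt4 were the most abundant keratins of the air larynx, at 1870 ± 658 and 1550 ± 518 CPM per kilobase (SD, n = 6). Krt15, a basal keratin, followed at 623 ± 112 CPM per kilobase, and Krt5 at 269 ± 98.2. Krt8, Krt19, Krt18, Krt14 and Krt17 lay between 226 and 127 CPM per kilobase in the mean, with Krt6a at 77.5, Krt23 at 71.9 and Krt7 at 46.2. Neighbours in this order overlapped in range over the 6 air libraries except between Krt15 and Krt5 and between Krt7 and Krt78. The epidermal pair Krt10 and Krt1 stood at 1.77 and 0.385 CPM per kilobase, far down the order. The defining keratins of squamous mucosa, basal cells and simple epithelium had counts in all 18 libraries, and of the 24 keratins below the filter 12 belong to the hair shaft and nail list and 7 to the inner root sheath list.

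**Figure D2:**
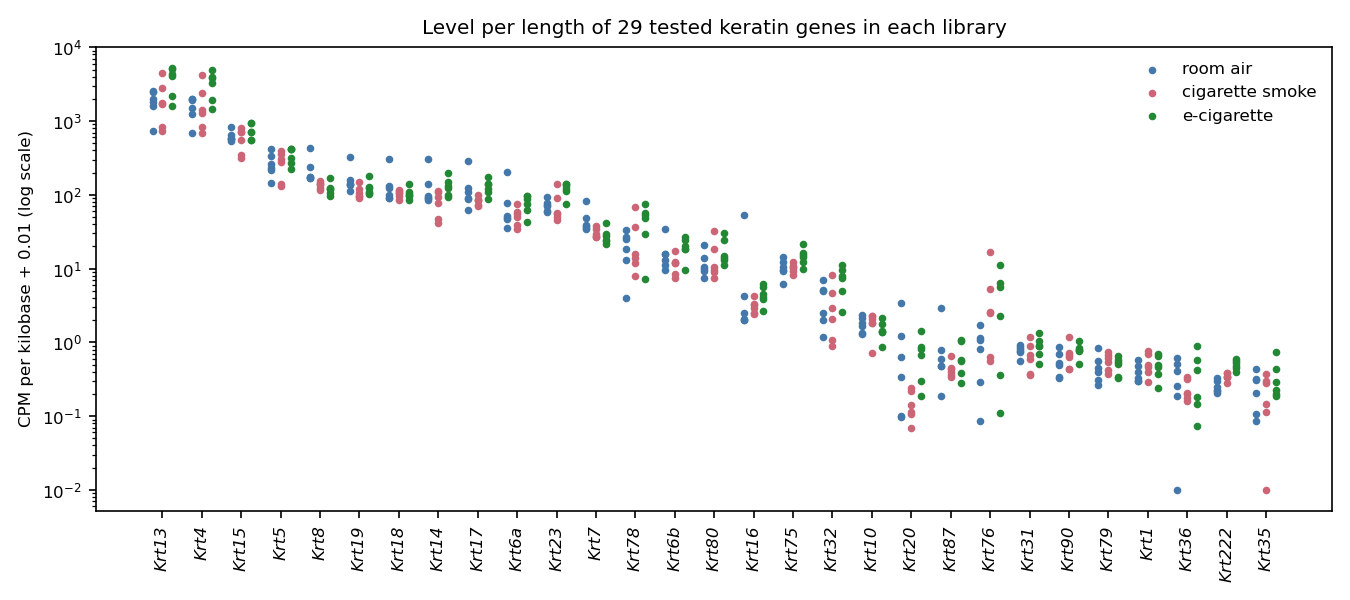
Level per gene length (CPM per kilobase plus 0.01, log scale, y axis) of the 29 tested keratins (x axis, by mean in air), 1 point per library. Krt13 and Krt4 are at the top in all groups, and Krt222 is the penultimate of the order although its e-cigarette points lie above its air points.

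Against room air, 5 keratins changed with e-cigarette aerosol, and with smoke none passed the edgeR test although 4 passed that of DESeq2. Under edgeR's quasi-likelihood test with Benjamini-Hochberg adjustment over all tested genes (called at an adjusted p below 0.05), 0 of 29 keratins were called in smoke versus air, where 1.59% of all tested genes were called (0.975% higher, 0.616% lower). At an unadjusted p below 0.05 there were 9 (2 higher, 7 lower). The share of all tested genes at that threshold was not computed, so unadjusted counts here and below have no background beside them. DESeq2 called 4 lower (Krt20, Krt19, Krt7 and Krt8) and 0 higher, beside 999 of 16159 genes called in all. The median log2 fold change of the 29 was -0.20, with 12 above 0, beside a median of 0.0094 over all tested genes. In e-cigarette versus air, Krt222, Krt23 and Krt75 rose and Krt8 and Krt7 fell, 17.2% of the 29, where 25.1% of all tested genes were called (12.1% higher, 13.0% lower). DESeq2 called the same 5, beside 4904 of 21626 genes called in all. The other 24 were not called by edgeR, and the median was 0.23 beside 0.0068 over all genes. In smoke versus e-cigarette, Krt23 and Krt75 were lower in smoke and 0 keratins were higher, where 16.5% of all tested genes were called (10.4% higher, 6.10% lower). None of the 8 keratins at an unadjusted p below 0.05 was higher in smoke. DESeq2 called 4 lower (Krt20, Krt23, Krt75 and Krt6b) and 0 higher, beside 3383 of 19582 genes called in all. These comparisons share their groups, so their values are given side by side and not as separate support.

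**Figure D3:**
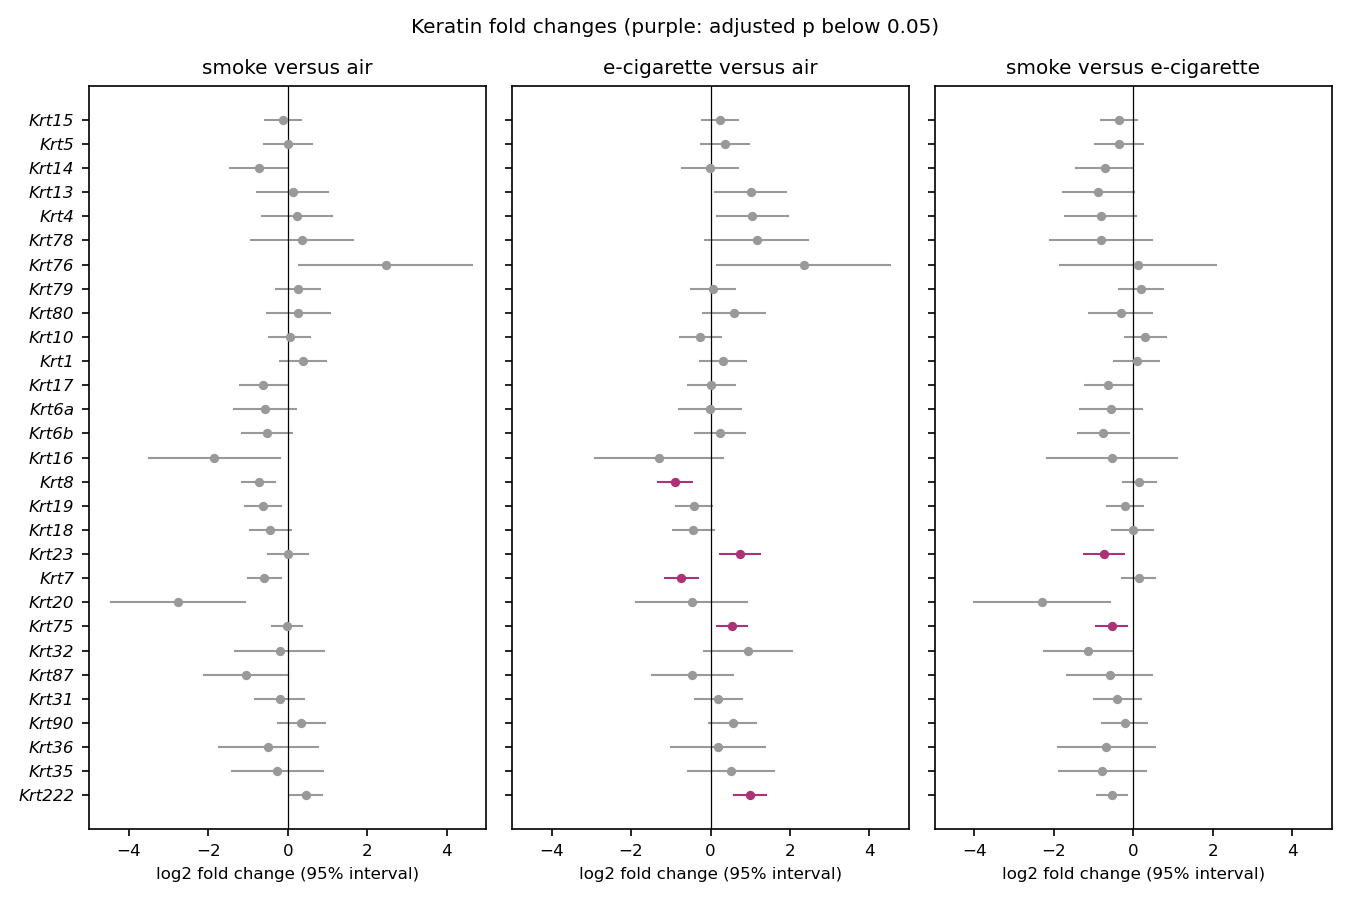
Log2 fold change (x axis) with its 95% interval for each of the 29 tested keratins (y axis, by class) in the 3 comparisons, purple where the adjusted p was below 0.05. Purple marks stand at 5 keratins in e-cigarette versus air, at Krt23 and Krt75 in smoke versus e-cigarette, and nowhere in smoke versus air.

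Basal keratins did not pass the test in any comparison. Of the 3 members, 1 (Krt14) had an unadjusted p below 0.05 in smoke versus air, 0 in e-cigarette versus air and 1 (Krt14) in smoke versus e-cigarette. Krt15, which marks basal cells of mucosa and the hair bulge, read 946 CPM at the lowest, 1023 at the median and 1482 at the highest in air, 551, 1118 and 1409 in smoke, and 981, 1251 and 1671 in e-cigarette. Krt5, the type II basal keratin, read 319, 541 and 928 CPM in air, 288, 648 and 871 in smoke, and 500, 809 and 928 in e-cigarette. All 3 groups overlapped in both genes. The log2 fold change of Krt5 was 0.0049 (SE 0.29, adjusted p = 0.996) in smoke versus air and 0.37 (SE 0.29, adjusted p = 0.381) in e-cigarette versus air. Krt14, its type I partner, read 150, 164 and 531 CPM in air, 73.4, 152 and 196 in smoke, and 163, 224 and 347 in e-cigarette. Smoke libraries 3 and 5 were lowest in Krt5, Krt14 and Krt15 alike. The log2 fold change of Krt14 was -0.73 (SE 0.34, adjusted p = 0.236) in smoke versus air, and -0.33 (adjusted p = 0.511) without air library 3.

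Mucosal squamous keratins were on average higher in the e-cigarette libraries, but the libraries of a group spread widely and 0 of the 5 tested members were called. Krt13, the type I keratin of the layers above the basal cells, read 1343, 3508 and 4595 CPM in air, 1346, 3137 and 8056 in smoke, and 2883, 7692 and 9527 in e-cigarette. Its partner Krt4 read 1456, 3646 and 4225 CPM in air, 1452, 2878 and 9120 in smoke, and 3076, 7567 and 10459 in e-cigarette. In both genes 4 of 6 e-cigarette libraries lay above every air library, and e-cigarette libraries 4 and 6 lay within the air range. Among the smoke libraries 6 and 4 were high and 3 and 5 low. In e-cigarette versus air the log2 fold change was 1.05 (SE 0.42, adjusted p = 0.0777) for Krt4 and 1.01 (SE 0.43, adjusted p = 0.0943) for Krt13. With only the air and e-cigarette groups in the fit, the adjusted p was 0.0309 for Krt4 and 0.0480 for Krt13, with log2 fold changes of 1.04 and 0.99. In smoke versus air the values were 0.23 (SE 0.42, adjusted p = 0.804) for Krt4 and 0.13 (SE 0.42, adjusted p = 0.900) for Krt13, and without smoke library 6 they were -0.24 and -0.27.

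The 5 tested mucosal members all had positive log2 fold changes in e-cigarette versus air (median 1.05, 3 at an unadjusted p below 0.05) and in smoke versus air (median 0.26, 1 at an unadjusted p below 0.05), and DESeq2 called none of them in either. Krt79, listed with these members, gave only 0.058 (SE 0.27, adjusted p = 0.897) in e-cigarette versus air. Its correlation with Krt13 over the 18 libraries was 0.34. Krt4 and Krt13 varied together (r = 0.99), so the 5 signs are not separate results. Krt76, a keratin of the palate, was the most uneven of the 5. It read 0.173, 2.16 and 3.97 CPM in air, 1.26, 5.84 and 38.6 in smoke, and 0.230, 9.20 and 25.8 in e-cigarette. Its log2 fold change was 2.46 (SE 1.02, adjusted p = 0.195) in smoke versus air and 2.34 (SE 1.02, adjusted p = 0.108) in e-cigarette versus air, and neither passed. Krt24, the sixth member, had 9 counts over all libraries and was not tested. Of the squamous markers that are not keratins, 4 of 17 rose in e-cigarette versus air (Anxa8, Trp63, Pax9 and Scel), where 12.1% of all tested genes rose, 16 of 17 were positive with a median of 0.85, and their summed level was 608 to 1968 CPM in air, 790 to 4919 in smoke libraries and 1107 to 4793 in e-cigarette. Trp63, the transcription factor of squamous basal cells, rose by 0.67 on the log2 scale (SE 0.14, adjusted p = 0.00159), and Scel, which encodes the cornified envelope protein sciellin, by 1.01 (SE 0.26, adjusted p = 0.00911). The part of squamous epithelium content in the keratin values was not tested.

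Epidermal and corneal keratins other than Krt80 were scarce. Of the 3 tested members (Krt1, Krt10 and Krt80) 0 were called in any comparison, with 0 at an unadjusted p below 0.05. Krt80, a keratin of many stratified epithelia, was the highest of them at 47.6, 65.1 and 134 CPM in air, 48.2, 64.1 and 206 in smoke, and 71.9, 92.7 and 195 in e-cigarette. Krt10 read 2.76, 3.67 and 5.00 CPM in air, 1.51, 4.11 and 4.84 in smoke, and 1.78, 2.97 and 4.46 in e-cigarette, and the groups overlapped. Its log2 fold change was 0.048 (SE 0.25, adjusted p = 0.938) in smoke versus air and -0.26 (SE 0.25, adjusted p = 0.481) in e-cigarette versus air. Krt2, Krt9, Krt12 and Krt77 of skin and cornea fell below the filter.

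Stress keratins, which squamous epithelium makes when it is wounded or proliferates fast, were read mainly through air library 3. Krt16 stood at 84.5 CPM in that library and at 3.16 to 6.67 CPM in the other 5 air libraries, against 3.83 to 6.72 CPM in smoke and 4.19 to 9.78 CPM in e-cigarette. Krt6a was at 494 CPM in air library 3 and 86.9 to 188 CPM in the other 5, against 82.8 to 184 in smoke libraries and 104 to 232 in e-cigarette. Krt17 was at 450 CPM there and 96.7 to 191 CPM in the other 5, against 110 to 152 in smoke libraries and 136 to 272 in e-cigarette. Without air library 3, Krt16 was higher in e-cigarette than in air by 0.80 on the log2 scale (edgeR adjusted p = 0.0175), while with it the log2 fold change was -1.30 (SE 0.76, adjusted p = 0.229). In smoke versus air the log2 fold change of Krt16 likewise went from -1.84 (SE 0.78, adjusted p = 0.199) to 0.26 (adjusted p = 0.582). Of the 4 tested members 0 were called in any comparison. Unadjusted p-values below 0.05 numbered 2 in smoke versus air, 0 in e-cigarette versus air and 2 in smoke versus e-cigarette, and in the last of these DESeq2 called Krt6b lower. Krt17 gave -0.61 (SE 0.28, adjusted p = 0.235) in smoke versus air and -0.63 (SE 0.28, adjusted p = 0.145) in smoke versus e-cigarette, and 5 of 6 smoke libraries lay below every e-cigarette library. In smoke versus e-cigarette Krt17 was called lower without air library 3 (edgeR adjusted p = 0.00989), with only these groups in the fit (0.00526) and with the epithelial score (0.0337). The transcripts of Krt6a and Krt6b share 49.5% and 50.1% of their 50-base stretches with other genes, mostly with each other, and Krt16 shares 37.6%, so how their reads were divided is uncertain.

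Of the simple epithelial keratins, Krt8 and Krt7 fell and Krt23 rose in e-cigarette versus air. Krt8, the type II keratin of single-layered epithelium, read 332 CPM at the lowest, 340 at the median and 842 at the highest in air, 231, 267 and 304 in smoke, and 188, 234 and 332 in e-cigarette. Every exposed library lay below every air library, with e-cigarette library 6 at 331.7 CPM just under the lowest air library at 332.5 CPM. Krt7, the type II keratin of glands and ducts, read 245, 268 and 577 CPM in air, 186, 202 and 268 in smoke, and 152, 183 and 289 in e-cigarette. In both exposed groups 5 of 6 libraries lay below the air range of Krt7. Krt8 fell in e-cigarette versus air by 0.89 on the log2 scale (SE 0.20, adjusted p = 0.00336) and Krt7 by 0.73 (SE 0.20, adjusted p = 0.0105). In smoke versus air the log2 fold change was -0.74 (SE 0.20, adjusted p = 0.0641) for Krt8 and -0.59 (SE 0.20, adjusted p = 0.110) for Krt7. Neither passed the edgeR test there, while DESeq2 called both, at adjusted p = 0.0116 for Krt8 and 0.0414 for Krt7. Leaving out 1 library at a time in edgeR, these log2 fold changes ran from -0.82 to -0.46 for Krt8 and from -0.68 to -0.37 for Krt7. Smoke and e-cigarette differed by 0.15 for Krt8 (95% interval -0.27 to 0.57) and by 0.14 for Krt7 (-0.27 to 0.55). Krt8 was the only keratin with separate groups in smoke versus air, where 2.43% of all tested genes had separate groups (1.54% higher, 0.890% lower). In e-cigarette versus air Krt8 and Krt222 had separate groups, beside 10.5% of all tested genes (4.50% higher, 6.00% lower).

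The RefSeq promoter windows (GRCm38.p6, 250 bases before to 50 after the start, read on the gene's strand) of the keratins that fell are shown because the pair moved together over libraries. The Krt8 window is chr15:102004293-102004592 on the minus strand and the Krt7 window chr15:101412153-101412452 on the plus strand. The deposited genes start further upstream, at 102004482 inside the Krt8 window and at 101411043 for Krt7, so that the whole Krt7 window lies within the counted gene.
Krt8: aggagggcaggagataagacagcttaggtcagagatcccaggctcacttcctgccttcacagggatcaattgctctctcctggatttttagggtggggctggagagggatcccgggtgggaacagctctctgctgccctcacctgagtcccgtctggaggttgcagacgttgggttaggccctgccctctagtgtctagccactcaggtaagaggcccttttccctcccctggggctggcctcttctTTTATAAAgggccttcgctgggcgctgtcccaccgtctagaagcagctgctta
Krt7: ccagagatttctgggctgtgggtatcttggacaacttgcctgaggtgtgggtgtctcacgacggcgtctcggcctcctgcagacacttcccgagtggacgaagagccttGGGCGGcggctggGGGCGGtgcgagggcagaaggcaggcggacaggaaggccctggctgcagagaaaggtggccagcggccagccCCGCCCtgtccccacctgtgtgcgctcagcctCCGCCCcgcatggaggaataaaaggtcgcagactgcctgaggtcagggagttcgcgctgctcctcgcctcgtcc
Capitals mark matches on either strand to TATAAA in Krt8, where matches on the 2 strands overlap, and to GGGCGG, known as the GC box, in Krt7. The GC box was in 4 places in the Krt7 window and in none of the Krt8 window. It was present in 35.7% of all 32851 promoter windows but in 5.41% of the 37 windows found for 36 keratin symbols. TATAAA was present in 13.6% of all windows and in 51.4% of the keratin windows. The AP-1 motif TGANTCA was in neither of these windows, and in 7.81% of all windows. CCAAT was in 37.4% of all windows and 40.5% of the keratin windows. A match is a run of letters and says nothing of use by a factor.

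The thyroid is itself a simple epithelium, and its markers went down with Krt8 and Krt7 in e-cigarette versus air. E-cigarette libraries 1 and 3, the highest of their group in thyroid markers but below every air library, read 233 and 236 CPM of Krt8 and 173 and 192 CPM of Krt7. Libraries 4 and 5, with the lowest thyroid sums, read 207 and 188 CPM of Krt8 and 152 and 164 CPM of Krt7. Library 6, at 2967 CPM of thyroid markers, was the highest of the group in both, at 332 CPM of Krt8 and 289 of Krt7. Library 2, at 828 CPM of thyroid markers, read 241 CPM of Krt8. With e-cigarette libraries 1 and 3 alone against air, the log2 fold change was -0.94 (edgeR adjusted p = 0.106) for Krt8 and -0.85 (adjusted p = 0.108) for Krt7, neither called. With the thyroid score as a covariate it was -0.81 (adjusted p = 0.384) and -0.66 (adjusted p = 0.478), in a fit that called 21 of 17537 genes in all. Thyroid or parathyroid content and e-cigarette exposure cannot be told apart here, and the part of either tissue in these values was not tested. With the general epithelium score as a covariate, Krt8 and Krt7 were both called lower in e-cigarette versus air. The 19 genes of that score did not move as 1 group there. Ehf, Esrp1, Grhl1, Grhl2 and Grhl3 rose and Epcam, Cldn4, Cldn7, St14, Prss8 and Marveld2 fell. These were 5 higher and 6 lower, beside 12.1% and 13.0% of all tested genes. All 19 summed to 1621 to 2774 CPM in air and 1726 to 2136 in e-cigarette. Without air library 3, Krt8 fell by 0.61 (adjusted p = 0.00175) and Krt7 by 0.50 (adjusted p = 0.0163). The Krt8 transcripts share 26.9% of their 50-base stretches with the pseudogene Krt8-ps, which makes that count less certain, while Krt7 shares none.

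Krt18 and Krt19, the type I keratins of the same epithelia, were not called. Krt18 read 131, 161 and 444 CPM in air, 121, 153 and 169 in smoke, and 121, 144 and 201 in e-cigarette, and the groups overlapped. Its log2 fold change was -0.44 (SE 0.24, adjusted p = 0.330) in smoke versus air and -0.43 (SE 0.24, adjusted p = 0.216) in e-cigarette versus air. Without air library 3 these values were -0.062 and -0.052. Krt19 read 209, 262 and 603 CPM in air, 166, 189 and 277 in smoke, and 191, 219 and 338 in e-cigarette. Its log2 fold change was -0.63 (SE 0.22, adjusted p = 0.122) in smoke versus air, where DESeq2 called it lower. In e-cigarette versus air it was -0.42 (SE 0.22, adjusted p = 0.167). Leaving out 1 library at a time, these values ran from -0.73 to -0.35 and from -0.57 to -0.14. The ratio of Krt8 to Krt18 per kilobase was 1.39 to 1.92 in air, 1.25 to 1.40 in smoke libraries and 0.962 to 1.42 in e-cigarette. Krt20, a keratin of gut lining, urothelium and Merkel cells, was low and uneven at 0.171, 0.925 and 6.67 CPM in air, 0.113, 0.226 and 0.437 in smoke, and 0.346, 1.43 and 2.69 in e-cigarette. Its log2 fold change was -2.76 (SE 0.80, adjusted p = 0.0741) in smoke versus air and -2.30 (SE 0.81, adjusted p = 0.0612) in smoke versus e-cigarette. DESeq2 called both, at adjusted p = 0.00494 and 0.00943, on 2 to 8 counts per smoke library. Without air library 3 edgeR gave -1.75 (adjusted p = 0.159) in smoke versus air and -2.29 (adjusted p = 0.0142) in smoke versus e-cigarette.

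Krt23, a type I keratin of glands and simple epithelium, moved the other way. It read 90.7, 111 and 148 CPM in air, 70.5, 87.3 and 216 in smoke, and 117, 198 and 222 in e-cigarette. In 5 of 6 e-cigarette libraries it was above every air library, with library 4 within the air range, and smoke libraries 6 and 4 were the high ones of their group. It rose in e-cigarette versus air by 0.74 on the log2 scale (SE 0.24, adjusted p = 0.0302) and was lower in smoke than in e-cigarette, with a log2 fold change of -0.73 (SE 0.24, adjusted p = 0.0457). In smoke versus air the value was 0.014 (SE 0.24, adjusted p = 0.982). Over the 18 libraries the log2 CPM of Krt23 had a correlation of 0.85 with Krt13, beside -0.24 with Krt8. These pooled values include the differences between groups. Leaving out 1 library at a time kept the e-cigarette call in 9 of 18 fits. Its promoter window, chr11:99493071-99493370 on the minus strand, holds none of the 4 motifs and is shown with that of Krt75, which also rose, at chr15:101573855-101574154 on the minus strand.
Krt23: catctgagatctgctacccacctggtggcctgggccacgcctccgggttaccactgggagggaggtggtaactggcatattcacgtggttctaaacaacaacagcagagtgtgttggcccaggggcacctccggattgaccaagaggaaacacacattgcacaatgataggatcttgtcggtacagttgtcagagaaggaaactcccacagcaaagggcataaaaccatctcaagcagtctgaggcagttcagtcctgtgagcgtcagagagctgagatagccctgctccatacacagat
Krt75: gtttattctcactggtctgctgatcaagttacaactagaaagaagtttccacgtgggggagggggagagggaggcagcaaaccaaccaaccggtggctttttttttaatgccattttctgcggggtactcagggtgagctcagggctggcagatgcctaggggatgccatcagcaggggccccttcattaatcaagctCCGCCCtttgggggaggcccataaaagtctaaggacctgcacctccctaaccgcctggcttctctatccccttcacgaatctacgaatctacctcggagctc
The capitals in the Krt75 window mark its 1 match to GGGCGG, on the reverse strand.

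Krt75, the type II keratin of the companion layer of the hair follicle, was the only one of 8 inner root sheath and companion layer keratins with enough counts to test. It read 20.04, 32.7 and 46.5 CPM in air, 26.9, 33.9 and 40.6 in smoke, and 32.2, 48.7 and 70.5 in e-cigarette. In e-cigarette 4 of 6 libraries lay above every air library, and library 6 was the highest of all 18. It rose in e-cigarette versus air by 0.53 on the log2 scale (SE 0.18, adjusted p = 0.0366) and gave -0.55 (SE 0.18, adjusted p = 0.0449) in smoke versus e-cigarette. With e-cigarette libraries 1 and 3 alone against air the log2 fold change was 0.21 (adjusted p = 0.689), and with the thyroid score as a covariate 0.30 (adjusted p = 0.772). The other 7 members had 32 counts or fewer over all libraries, with Krt72 and Krt73 at 0.

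Hair shaft and nail keratins other than Krt32 were near the floor. Of 18 members 6 were tested, with 0 called in any comparison and, at an unadjusted p below 0.05, 0 in smoke versus air, 0 in e-cigarette versus air and 1 (Krt32) in smoke versus e-cigarette. Krt32, a hair cuticle keratin also found in filiform papillae, was the highest of them at 2.01, 6.34 and 12.0 CPM in air, 1.51, 4.27 and 14.0 in smoke, and 4.42, 13.3 and 19.0 in e-cigarette. Its level followed Krt13 over the 18 libraries with a correlation of log2 CPM of 0.95, which includes the differences between groups. Krt87, another tested member, shares 36.9% of its 50-base stretches with other genes. Krt81 and Krt82 had 0 counts in all 18 libraries. The hair follicle markers that are not keratins summed to 9.90 to 16.7 CPM in air, 11.4 to 17.0 in smoke libraries and 14.0 to 23.9 in e-cigarette, with Krtap8-1 and Krtap11-1 at 0 in all groups and 0 of 3 tested markers called. Among all 24 keratins below the filter the highest total was 142 counts (Krt42) and 4 had none, while the lowest total among those tested was 160 counts (Krt36).

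Krt222, a keratin-like gene at the edge of the chromosome 11 cluster, had the smallest p of any keratin on the fewest reads of the called ones. Its counts per library were 10 to 18 in air, 14 to 25 in smoke libraries and 21 to 35 in e-cigarette. As CPM it read 0.641, 0.742 and 1.05 in air, 0.883, 1.10 and 1.24 in smoke, and 1.28, 1.60 and 1.91 in e-cigarette. Every e-cigarette library lay above every air and every smoke library. It rose in e-cigarette versus air by 0.99 on the log2 scale (SE 0.19, adjusted p = 0.000756), with a log2 fold change of 0.45 (SE 0.20, adjusted p = 0.201) in smoke versus air and -0.54 (SE 0.19, adjusted p = 0.0521) in smoke versus e-cigarette. In smoke versus e-cigarette 9.37% of all tested genes had separate groups (6.65% higher, 2.72% lower), and Krt222 was the only such keratin. With e-cigarette libraries 1 and 3 alone against air it gave 1.00 (adjusted p = 0.0578). Over the 18 libraries its log2 CPM had a correlation of -0.74 with that of Krt8. Krt222 rose and Krt8 fell in e-cigarette versus air, so this pooled value carries the group difference. No value within groups was computed for them.

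**Figure D4:**
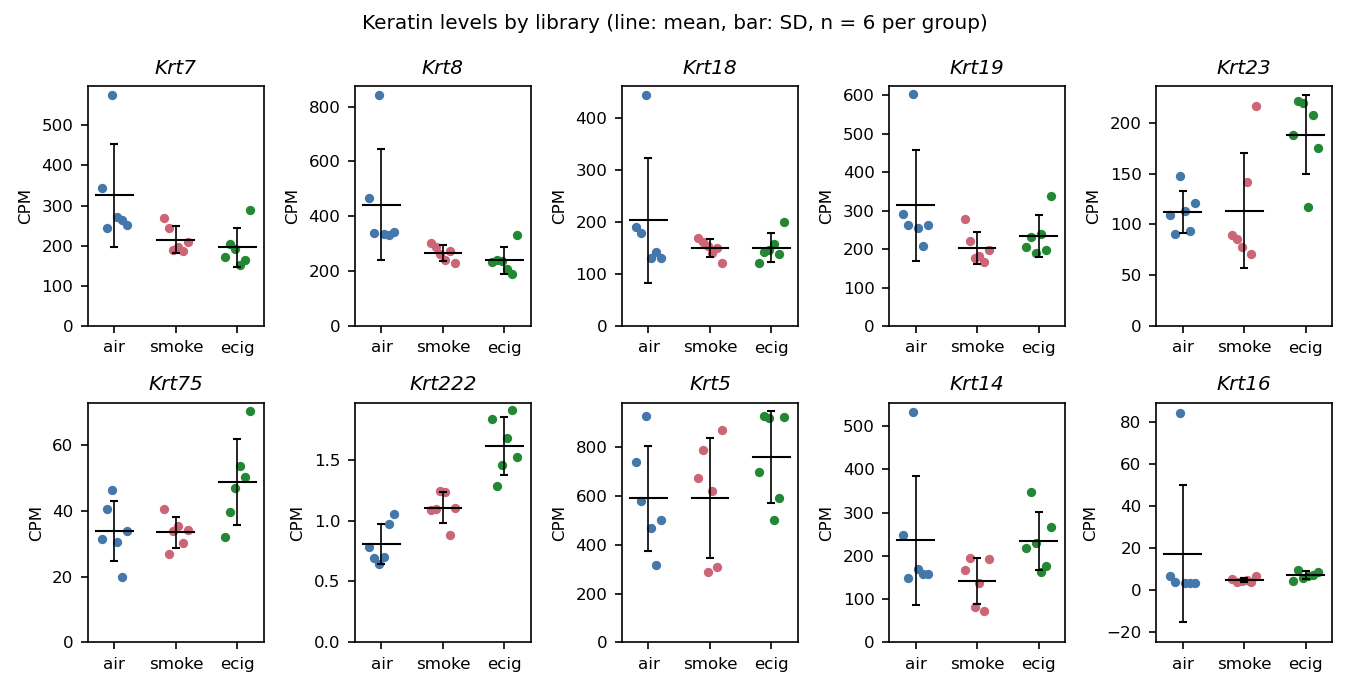
CPM (y axis) of 10 keratins in the 18 libraries by group (x axis; ecig is e-cigarette), with the mean (line) and SD (bar) of each group of 6. Krt8 lies lower in both exposed groups than in air, Krt222 lies highest in e-cigarette, and air library 3 is the high point of Krt7, Krt8, Krt14, Krt16, Krt18 and Krt19.

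Partner keratins were compared over libraries with Pearson's r of log2 CPM and a permutation test, for 6 pairs, of which Krt5 with Krt8 are not partners. Krt4 and Krt13 varied together most closely, with r = 0.99 (rho 0.96, n = 18, permutation p adjusted over the 6 pairs = 2e-05, from the smallest p the permutations can give), and within groups r was 0.97 in air, 0.99 in smoke and 0.98 in e-cigarette. Their ratio per kilobase stayed between 0.745 and 1.02 in 18 libraries. Krt5 and Krt14 gave r = 0.82 (rho 0.88, permutation adjusted p = 2e-05), within groups 0.80, 0.98 and 0.88, and 0.68 without smoke libraries 3 and 5. Krt6a and Krt16 gave r = 0.87 (rho 0.78, permutation adjusted p = 2e-05), within groups 0.97, 0.83 and 0.56, and 0.75 without air library 3 and e-cigarette library 2.

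For Krt8 and Krt18 r was 0.83 (permutation adjusted p = 0.00153), but rho was 0.49 (permutation adjusted p = 0.0583) and r fell to 0.37 without air libraries 1 and 3, so the pooled value rests on those libraries. Within groups it was 0.96 in air, 0.94 in smoke and 0.69 in e-cigarette, and on deviations from the group means 0.91. Krt1 and Krt10 gave r = 0.24 (rho 0.15, permutation adjusted p = 0.409), and -0.093 without smoke library 6 and e-cigarette library 4, at 19 to 58 and 24 to 87 counts per library. The pair of different epithelia, Krt5 and Krt8, gave r = 0.16 (rho -0.0031, permutation adjusted p = 0.542), within groups 0.82 in air, -0.12 in smoke and 0.72 in e-cigarette. Summed per kilobase, the 28 type I members stood to the 25 type II members as 1.13 to 1.55 over the 18 libraries, with medians of 1.44 in air, 1.32 in smoke and 1.38 in e-cigarette.

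**Figure D5:**
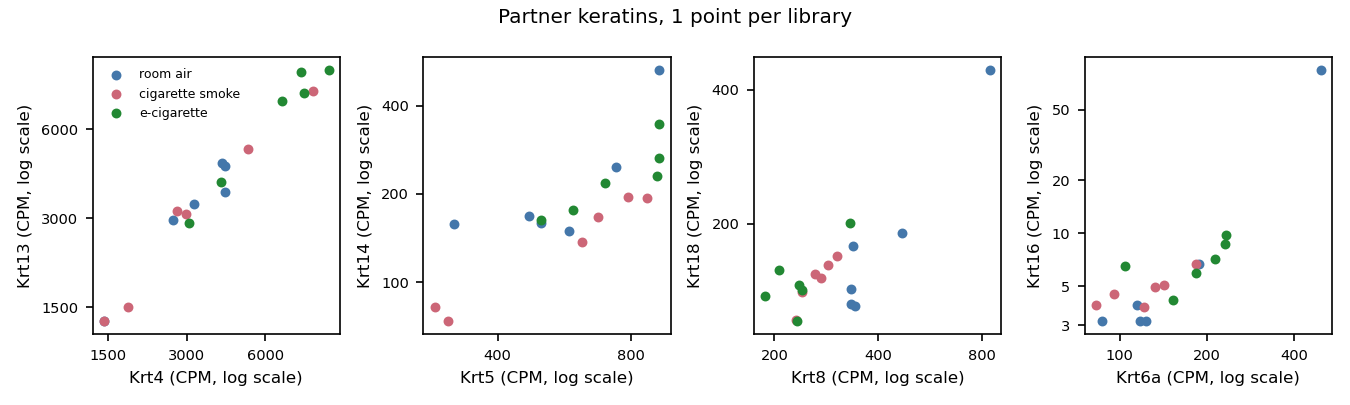
Level of 4 keratin partner pairs (CPM, log scale on both axes), 1 point per library, coloured by group. Krt4 and Krt13 form a narrow line through all 3 groups, while air library 3 is the far point of the Krt8 with Krt18 and Krt6a with Krt16 plots.

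Keratin filaments end on desmosomes and hemidesmosomes, and 17 genes of these anchors were all tested. In smoke versus air 1 fell and 0 rose (median -0.022), in e-cigarette versus air 3 rose and 2 fell (median 0.27), and in smoke versus e-cigarette 2 were higher and 1 lower (median -0.28). Of all tested genes 1.59%, 25.1% and 16.5% were called in these comparisons, so the last 2 counts are near the background. Pkp2, the plakophilin of simple and basal epithelium and heart, read 40.4 ± 13.8 CPM in air, 23.4 ± 3.10 in smoke and 16.2 ± 1.51 in e-cigarette (SD, n = 6). It was lower by log2 fold changes of -0.79 (SE 0.16, adjusted p = 0.0218) in smoke and -1.32 (SE 0.16, adjusted p = 1.42e-05) in e-cigarette versus air. Dsg2, the desmoglein of simple epithelium, fell in e-cigarette versus air by 0.68 on the log2 scale (SE 0.10, adjusted p = 0.000105). Dsg3, the desmoglein of squamous epithelium, rose by 1.03 (SE 0.33, adjusted p = 0.0315), Dsc2 by 0.86 (SE 0.25, adjusted p = 0.0170) and Dst, a plakin that ties keratin to hemidesmosomes, by 0.61 (SE 0.15, adjusted p = 0.00509). Against e-cigarette, smoke was higher in Pkp2 and Dsg2, with log2 fold changes of 0.53 and 0.54, and lower in Dsc2, with -0.78. Of 15 tested intermediate filament genes outside the keratins, 0 were called by edgeR in smoke versus air (4 at an unadjusted p below 0.05), while Des, Synm, Sync and Bfsp1 rose and Lmnb2 fell in e-cigarette versus air, beside the same 1.59% and 25.1% of all tested genes. Muscle markers moved with the first of these: 7 of 10 rose in e-cigarette versus air, with sums of 19882 to 35964 CPM in air and 36416 to 48014 in e-cigarette. Their part in these values was not tested.

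As a description of likeness, the 15184 tested protein-coding genes outside the keratins were ranked by Pearson's r of log2 CPM over the 18 libraries, which share depth, tissue content and groups. Closest to Krt8 were Tnfrsf12a (0.95), Ffar4 (0.94), Mafk (0.93), Gprc5a (0.92) and Ezr (0.92). Closest to Krt7 were Ffar4 (0.93), Socs3 (0.92), Tnfrsf12a (0.92), F11r (0.92) and Raly (0.91), so that Tnfrsf12a and Ffar4 stood on both lists. Closest to Krt222 were Napb (0.89), Itm2a (0.89), Pkia (0.88), 5730455P16Rik (0.87) and Arhgap20 (0.86). Air library 3 was the highest of all in Krt8 and Krt7. Without it, a setting chosen after seeing the data, r over 17 libraries was 0.80 to 0.88 for the genes listed with Krt8, 0.79 to 0.84 for those with Krt7 and 0.83 to 0.89 for those with Krt222.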

How the data were processed

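Whole mouse larynges were profiled by mRNA sequencing in 18 libraries, 6 per group, and the groups were taken from the labels. Per the labels' protocols, libraries were made with an NEBNext Ultra RNA kit. The submitters' processing notes name the tools STAR, with no version, and featureCounts 1.5.0-p3, and GRCm38 and mm10 as builds. The sources used here give neither annotation release nor strand setting, so reads of overlapping and antisense genes cannot be told apart. The authors deposited raw counts (whole numbers for each gene in each library) and gene coordinates, and the deposited gene length in bases (another number) served for levels per kilobase.

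Genes were kept with filterByExpr (minimum count 10, minimum total 15). The 3 groups were fitted in 1 model in edgeR 4.0.16 (TMM, robust quasi-likelihood fit, R 4.3.3, limma 3.58.1), and p-values were adjusted over all 17537 tested genes by Benjamini-Hochberg. "Rose", "fell" and "called" mean an adjusted p below 0.05, and an adjusted p with no tool named is from edgeR. The edgeR step was tested on simulated data. Correlations used 100000 resamples, two-sided. Shared stretches of 50 bases were counted over reference transcripts of GENCODE. The 45 pairs of libraries within groups differed beyond sampling noise, with 16.8 to 149 as the chi-square divided by its degrees of freedom. Alternatives were DESeq2 1.42.0, other scalings and filters, covariates, a replicate block and leaving out libraries.

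The keratins, the gene lists and the libraries left out together were chosen with earlier results of these data known. Named in full are the called keratins and Krt4, Krt5, Krt6a, Krt7, Krt8, Krt10, Krt13, Krt14, Krt15, Krt16, Krt17, Krt18 and Krt19, the highest tested member of each list, and called anchoring genes. Krt20, Krt76 and Krt79 were singled out after their values were seen, as were Trp63 and Scel. Other keratins are given by counts.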

Additional observations from a re-analysis of the deposited data

Results flagged for a closer look

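Within a group of 6, a library was taken as standing apart when its gap to the nearest other library, divided by the group's range, exceeded Dixon's 95% critical value, which chance gives in about 1 of 20 groups. Keratins varied together over libraries, so the combinations checked are not independent and their count cannot be set against that rate. Of 48 gene and group combinations checked over 16 keratins, 12 exceeded the critical value. Air library 3 accounted for 9 of them, all high, at 842 CPM of Krt8, 603 of Krt19, 577 of Krt7, 531 of Krt14, 494 of Krt6a, 450 of Krt17, 444 of Krt18, 84.5 of Krt16 and 1482 of Krt15. The other 5 air libraries were at 332 to 468 CPM of Krt8 and 946 to 1137 CPM of Krt15. E-cigarette library 6 was high at 338 CPM of Krt19, against 191 to 240 in the other 5, and at 332 CPM of Krt8, against 188 to 241. Smoke library 5 was low at 1.51 CPM of Krt10, against 3.83 to 4.84 in the other 5. Krt4, Krt5, Krt13, Krt23, Krt75 and Krt222 had no such library. What set air library 3 apart was not tested.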

How the results depend on the processing

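The e-cigarette results are limited by the tissue taken with the larynx, since thyroid and parathyroid markers and group moved together. Both comparisons with air are limited by gland content, low in air libraries 4, 5 and 6. In smoke versus air 3 of 11 tested gland markers rose, beside 0.975% of all tested genes. The stress and simple keratins are limited by air library 3, although Krt8 and Krt7 kept their e-cigarette versus air call without it. The number of keratins lower in smoke than in air (0) became 1 (Krt8) with library totals, 4 with DESeq2 and 4 (Krt20, Krt19, Krt17 and Krt8) without air 4, 5 and 6. The 3 higher in e-cigarette than in air became 1 (Krt222) at an adjusted p below 0.01, with no filter and without air 4, 5 and 6, 0 with the thyroid score or without e-cigarette 2, 4, 5 and 6, and 7 (Krt222, Krt23, Krt80, Krt90, Krt75, Krt5 and Krt4) with the epithelial score. The 2 lower became 1 (Krt8) below 0.01, 0 with the thyroid score or without e-cigarette 2, 4, 5 and 6, and 5 (Krt19, Krt16, Krt7, Krt8 and Krt18) without air 4, 5 and 6. The 2 lower in smoke than in e-cigarette became 0 below 0.01, with no filter, with the thyroid score and without e-cigarette 2, 4, 5 and 6, 1 (Krt75) with library totals, 4 with DESeq2, 4 (Krt222, Krt17, Krt75 and Krt6b) with 2 groups fitted, and 8 (Krt20, Krt23, Krt14, Krt17, Krt75, Krt6b, Krt6a and Krt5) with the epithelial score. Dropping low-thyroid e-cigarette libraries leaves 2 of 6, and the thyroid fit called 21 of 17537 genes in e-cigarette versus air. The number of all genes called moved too. In smoke versus air the main fit called 279 of 17537, library totals 294, DESeq2 999 of 16159 and the fit without air 4, 5 and 6 451 of 18130. In e-cigarette versus air the main fit called 4406, the epithelial score 4537 and no filter 3655 of 35370. There it was 4539 of 18130 without air 4, 5 and 6 and 688 of 18522 without e-cigarette 2, 4, 5 and 6. In smoke versus e-cigarette the main fit called 2897 of 17537 genes, library totals 2817, the epithelial score 3240 and the thyroid score 0. DESeq2 called 3383 of 19582, the fit of 2 groups 3455 of 17121 and no filter 2275 of 35370. Without e-cigarette 2, 4, 5 and 6 it was 147 of 18522. The cause of the other changes in the keratin counts was not tested.

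Leaving out 1 library at a time gave 0 to 1 keratins lower in smoke versus air (Krt8 without air 2), 1 to 4 higher and 2 to 2 lower in e-cigarette versus air, and 0 to 6 lower in smoke versus e-cigarette. The 1 was Krt222, without air 1, 4, 5 or 6 or e-cigarette 3 or 5, and the 4 came without air 3. In smoke versus e-cigarette 6 came without air 3, 4 without smoke 6, 1 without air 4, smoke 1, smoke 4, e-cigarette 1 or e-cigarette 2, and 0 without air 1, air 6, smoke 2, 3 or 5, or e-cigarette 3, 5 or 6. Krt8, Krt7 and Krt222 kept the e-cigarette versus air call in 18 of 18 of these fits, Krt23 in 9 and Krt75 in 8. Of all tested genes these fits called 50 to 562 in smoke versus air and 3678 to 4425 in e-cigarette versus air. In smoke versus e-cigarette they called 2113 to 3237.

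Log2 fold changes that changed sign were in comparisons where that gene was not called. In smoke versus air, Krt23 became -0.013 (size factors), -0.041 (library totals), -0.012 (DESeq2), -0.0092 (no filter), -0.0019 (2 groups), -0.049 (no air 4, 5 and 6) and -0.011 (no e-cigarette 2, 4, 5 and 6). On the same settings Krt5 became -0.023, -0.024, -0.022, -0.019, -0.010, -0.36 and -0.020, and -0.0070 with a 1 CPM filter. Krt10 became -0.023 (library totals) and Krt75 0.096 (epithelial score). In e-cigarette versus air, Krt17 became -0.0042, -0.042 and -0.0051 on the first 3 settings, -0.0013 (1 CPM filter), -0.00050 (2 groups), -0.46 (thyroid score), -0.44 (no air 4, 5 and 6) and -0.39 (no e-cigarette 2, 4, 5 and 6). With the epithelial score Krt6a became 0.51, Krt14 0.37 and Krt16 0.23. In smoke versus e-cigarette, Krt18 became 0.034 (library totals), 0.21 (thyroid score), 0.0074 (epithelial score) and 0.16 (no e-cigarette 2, 4, 5 and 6), Krt16 0.47 (thyroid score) and Krt19 0.028 (no e-cigarette 2, 4, 5 and 6). Without 1 library, smoke versus air ran from -0.29 to 0.11 for Krt23, -0.13 to 0.088 for Krt75, -0.24 to 0.40 for Krt4, -0.15 to 0.17 for Krt5, -0.036 to 0.20 for Krt10, -0.27 to 0.30 for Krt13, -0.23 to 0.0082 for Krt15 and -2.08 to 0.26 for Krt16. E-cigarette versus air ran from -0.16 to 0.55 for Krt6a, -0.16 to 0.39 for Krt14, -1.54 to 0.80 for Krt16 and -0.13 to 0.43 for Krt17, and smoke versus e-cigarette from -0.066 to 0.088 for Krt18. The correlation of Krt8 with Krt18 fell to 0.37 without 2 libraries, that of Krt1 with Krt10 to -0.093, and that of Krt5 with Krt8 became 0.50 on deviations from the group means.

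The labels share replicate numbers across groups, but same-numbered libraries did not deviate together (r -0.45 to 0.16 over 18 pairs, 3 above 0.1, and 0 of 18 libraries closest to their own number). With the replicate number as a block, 2 keratins were higher and 2 lower in e-cigarette versus air, 0 were called in smoke versus air and 1 (Krt20) was lower in smoke versus e-cigarette. Of all 17537 tested genes that fit called 3836, 39 and 2386 in these comparisons. With this block Krt23 became -0.038 and Krt75 0.0066 in smoke versus air, and Krt6a 0.18 and Krt14 0.031 in e-cigarette versus air.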
